A study of Mus musculus with 7 samples.

Results

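The nuclear-encoded genes of the mitochondrial respiratory chain and ATP synthase were examined in mouse liver after a high-fat diet. The members were all genes whose symbol, reached through the RefSeq accession of the array probe, began with Nduf, Sdha to Sdhd, Uqcr, Cox4 to Cox8 or Atp5, or was Cyc1 or Cycs. This gave 99 genes with 132 probes, of 32451 genes with 39429 probes on the array. Of the 99, 74 had 1 probe and 25 had more, with at most 5. The 99 included 12 assembly factors, which help to build complexes I and II without being part of them and whose symbols share the same stems.

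The respiratory chain passes electrons from NADH and succinate through complexes I to IV to oxygen and pumps protons across the inner mitochondrial membrane, and ATP synthase uses that proton gradient to make ATP. Most subunits are encoded in the nucleus and imported, while a core of complexes I, III, IV and ATP synthase comes from mitochondrial DNA and is not covered here. In hepatocytes this machinery takes the electrons released by fatty acid oxidation and supplies the ATP for glucose and urea synthesis.

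Liver RNA came from male C57/BJ mice that were 26 weeks old, after 20 weeks on their diet from the age of 6 weeks. The HFD group (n = 3) had received the high-fat diet D12331 of ResearchDiets and the chow group (n = 4) a Provimi Kliba control diet. Each sample was hybridised to 1 Agilent 1-colour array. The labels do not tie samples to named animals, so p-values measure the spread between these samples.

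Per array, 57.0% to 66.8% of spots exceeded background clearly, by the scanner software's own flag, and none was saturated. The authors' deposited table of log2 values held 1615 probes, which stood for 1488 genes, 801 higher and 687 lower in HFD. For each of these 1615 probes the chow and HFD values did not overlap, and no difference was smaller than 0.33, so the table is a selection of differing probes. The rule of that selection is not given in the sources used here. The scanner files of the HFD samples matched their table columns (r between 0.999915 and 0.99994). The scanner files labelled chow did not (r between 0.581 and 0.589), and of 15 hepatocyte markers Ahsg, Alb, Apoa1 and Cps1 were not well above background on any of them, while all 15 were on every HFD array. Diet was therefore compared only in the table, where none of these 4 files was used. The 3 HFD scans share 1 day and the scans labelled chow share another. When the arrays behind the chow columns were scanned is unknown, so diet and scan day cannot be told apart.

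Promoters were sought for the 9 genes that the table lists, and 8 were found in the RefSeq table of build GRCm38.p6 (250 bases before the start of each gene). Those of 4 genes are printed here 5′ to 3′ on the strand of the gene because they show both kinds found: those of Sdha and Ndufs5, which hold matches to motifs of known regulators of these genes, and those of Uqcr10 and Cox7a1, which hold none. Capitals mark matches to the NRF1 motif GCGCANGCGC, the GABP motif CCGGAAG, the ERR motif AAGGTCA or the YY1 motif CCGCCAT, searched on both strands. The windows are chr13:74350241-74350490 (minus strand) for Sdha, chr4:123718187-123718436 (minus strand) for Ndufs5, chr11:4704345-4704594 (minus strand) for Uqcr10 and chr7:30183921-30184170 (plus strand) for Cox7a1.

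Sdha: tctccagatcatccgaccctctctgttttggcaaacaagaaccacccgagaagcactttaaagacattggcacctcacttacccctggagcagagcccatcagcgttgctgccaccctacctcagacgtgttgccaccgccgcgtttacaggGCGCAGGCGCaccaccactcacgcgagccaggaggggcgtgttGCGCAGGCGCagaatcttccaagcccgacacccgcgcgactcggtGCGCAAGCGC

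Ndufs5: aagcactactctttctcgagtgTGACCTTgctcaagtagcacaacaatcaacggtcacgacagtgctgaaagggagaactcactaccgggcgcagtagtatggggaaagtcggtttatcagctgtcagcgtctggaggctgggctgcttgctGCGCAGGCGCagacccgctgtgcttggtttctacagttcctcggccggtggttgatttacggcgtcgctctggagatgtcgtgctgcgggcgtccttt

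Uqcr10: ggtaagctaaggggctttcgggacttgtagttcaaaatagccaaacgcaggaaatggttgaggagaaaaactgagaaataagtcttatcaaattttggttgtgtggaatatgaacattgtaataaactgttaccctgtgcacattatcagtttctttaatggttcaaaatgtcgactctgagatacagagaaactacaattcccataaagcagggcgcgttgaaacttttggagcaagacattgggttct

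Cox7a1: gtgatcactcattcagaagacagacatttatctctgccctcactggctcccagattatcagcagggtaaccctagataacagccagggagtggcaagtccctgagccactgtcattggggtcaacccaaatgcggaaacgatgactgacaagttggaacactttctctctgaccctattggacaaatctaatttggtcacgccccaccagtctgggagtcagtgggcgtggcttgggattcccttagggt

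The Sdha promoter held the NRF1 motif at 3 places, 98 to 89, 55 to 46 and 10 to 1 bases before the start. The Ndufs5 promoter held it at 98 to 89 bases before the start, and an ERR match on the minus strand at 228 to 222 bases. The promoters of Cox7b, Ndufa9, Ndufv3 and Sdhb held no match to these 4 motifs. Over all 86 promoters of the 81 members found in the RefSeq table, 17.4% held the NRF1 motif, against 3.74% of all 32851 promoters of the same length. NRF1 is a transcription factor known for its sites in respiratory chain promoters. The GABP motif was present in 18.6% of member promoters and 6.91% of all, the YY1 motif in 8.14% and 2.21%, and the ERR motif in 5.81% and 4.08%. The Sp1 motif GGGCGG, which is GC-only and not capitalised, was present in 40.7% and 32.7%, and among the listed genes in Ndufv3 and Sdhb. Median GC content was 57.2% in member promoters and 52.4% in all, and its part in these shares was not tested. A match to these letters is a description of the sequence and not evidence of binding.

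The table held 9 of the 99 genes. Each of the 9 had a higher level in HFD, and 0 members were listed as lower. They were Ndufa9, Ndufs5 and Ndufv3 of complex I, Sdha and Sdhb of complex II, Uqcr10 and Uqcrc2 of complex III, and Cox7a1 and Cox7b of complex IV. No ATP synthase gene, no cytochrome c gene, no core complex I gene and no assembly factor was listed. The 9 were 9.09% of the members, and the table lists 2.47% of all genes on the array as higher and 2.12% as lower. Among genes well above background on all 3 HFD arrays, 9.28% of the 97 members and 4.45% of all 17634 genes were listed as higher, and 0 of the members and 3.46% of all were listed as lower. This filter uses the HFD arrays alone and so favours genes that are higher in HFD. It kept 785 of the 801 genes listed as higher and 610 of the 687 listed as lower. The differences of the 9 ran from 0.35 to 1.06 on the log2 scale, with a median of 0.44, against a median of 0.82 for all 801 genes listed as higher. Of those 801 genes 13.2% differed by under 0.5, and 7 of the 9 members did.

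**Figure D1:**
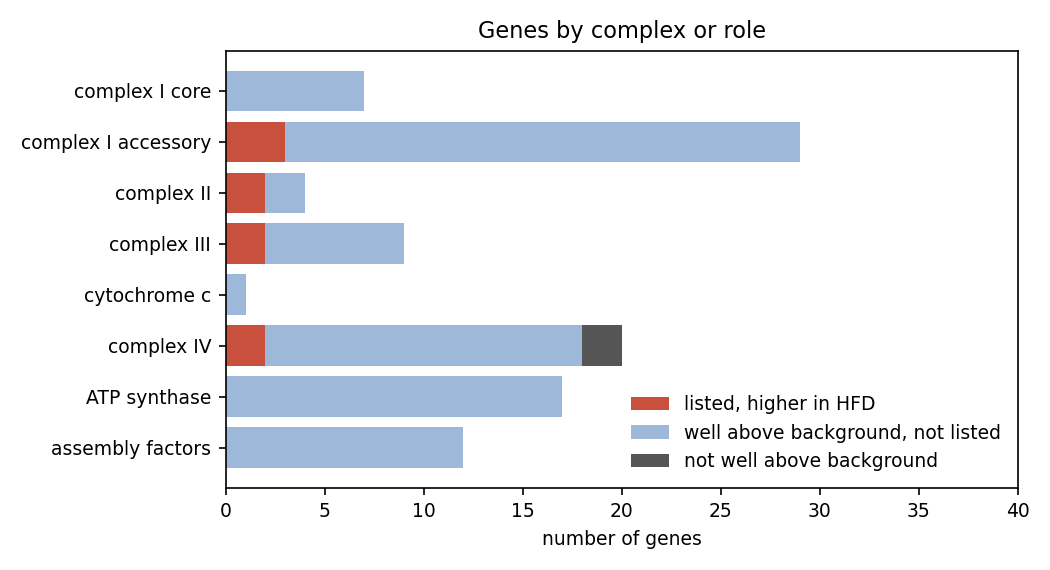
Number of member genes (horizontal axis) in each complex or role (vertical axis), split into genes listed as higher in HFD, detected genes that were not listed, and genes not well above background. The listed genes are 3 of 29 accessory subunits of complex I, 2 of 4 in complex II, 2 of 9 in complex III and 2 of 20 in complex IV, with 0 of 17 in ATP synthase.

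The limma test used the table's log2 values with the spread of 19523 genes on the HFD arrays as its prior, and adjusted p over all 32451 genes by the Benjamini-Hochberg method, with p set to 1 for genes outside the table. It called 338 genes higher (1.04% of all genes, 22.7% of those in the table and 42.2% of those listed as higher) and 267 lower (0.823% and 17.9%). Of the members it called 1 higher, Cox7a1, and 0 lower. All 9 members had an unadjusted p under 0.05, as did all 1488 genes of the table, which were selected for differing. With columns centred on their medians 4 of the 9 members and 1421 of the 1488 genes did. The other 90 members have no diet comparison here.

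In complex I, which takes electrons from NADH, 3 accessory subunits were listed. Ndufs5 was at 15.08, 15.23, 15.14 and 15.00 in chow and 15.61, 15.51 and 15.59 in HFD. The groups did not overlap, as for every probe of the table, and lay 0.28 apart at their nearest values. HFD exceeded chow by 0.46 (SE 0.0943, 1.37-fold, limma adjusted p = 0.0634), which missed the threshold of 0.05. Ndufv3, a small subunit of the NADH-binding part of the complex, was at 9.52, 9.46, 9.37 and 9.68 in chow and 10.01, 10.03 and 10.14 in HFD. The lowest HFD value was 0.333 above the highest chow value, and the difference was 0.55 (SE 0.105, 1.47-fold, limma adjusted p = 0.0529). Ndufv3 had a second probe, the one with its highest mean on the HFD arrays, that the table does not list and that therefore has no diet comparison. The comparison of Ndufv3 rests on its dimmer probe, at 0.32, 0.34 and 0.44 against 5.92, 6.19 and 6.22 for the other on the HFD arrays, as log2 signal minus the array's 75th percentile. Ndufa9, an accessory subunit near the quinone site, was at 13.41, 13.52, 13.53 and 13.48 in chow and 13.79, 13.89 and 13.82 in HFD. It had the smallest difference among the 9 genes, 0.35 (SE 0.0853, 1.27-fold, limma adjusted p = 0.0994), and only 0.375% of the genes listed as higher differed by less.

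Complex II, succinate dehydrogenase, also serves the tricarboxylic acid cycle, and both of its catalytic subunits were listed. Sdha, which carries the flavin that oxidises succinate, was at 14.13, 14.20, 14.26 and 14.10 in chow and 14.55, 14.51 and 14.55 in HFD. Sdhb, the iron-sulfur subunit, was at 15.59, 15.68, 15.63 and 15.49 in chow and 15.96, 16.04 and 16.11 in HFD. Neither gene overlapped between the groups, as no probe of the table does. Sdha differed by 0.36 (SE 0.0865, 1.29-fold, limma adjusted p = 0.0874) and Sdhb by 0.44 (SE 0.0930, 1.36-fold, limma adjusted p = 0.0665), and neither was called. A second Sdhb probe was not listed. The membrane anchors Sdhc and Sdhd were not listed.

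Complex III passes electrons from ubiquinol to cytochrome c, and Uqcrc2 and Uqcr10 were listed. Uqcrc2, a core subunit of the complex that binds no cofactor and is measured by 10 spots on each array, was at 14.88, 14.96, 14.96 and 14.95 in chow and 15.33, 15.27 and 15.34 in HFD. These groups lay 0.31 apart, and the difference was 0.38 (SE 0.0820, 1.30-fold, limma adjusted p = 0.0706). Uqcr10, a small membrane subunit, had 3 probes, all listed. Its most intense probe was at 15.20, 15.29, 15.36 and 15.20 in chow and 15.71, 15.71 and 15.68 in HFD, a difference of 0.44 (SE 0.0875, 1.35-fold, limma adjusted p = 0.0586). The other 2 probes differed by 0.42 (1.34-fold) and 0.34 (1.27-fold) in the same direction. The 3 probes of Uqcr10 share the same samples and are not independent evidence.

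In complex IV, cytochrome c oxidase, the table listed Cox7a1 and Cox7b. Cox7a1, the isoform of subunit 7a known from heart and skeletal muscle, was at 9.28, 9.47, 9.61 and 9.56 in chow and 10.92, 10.58 and 10.13 in HFD. All 3 HFD values were above all chow values, as for every probe listed as higher. The HFD values were spread more widely (SD 0.396) than the chow values (SD 0.148). The difference was 1.06 (SE 0.193, 2.09-fold, limma adjusted p = 0.0491). It was larger than that of 69.0% of the genes listed as higher. The call was lost when any sample other than HFD replicate 3 was left out, with a difference of 0.88 without HFD replicate 1 and of 1.27 without HFD replicate 3, where limma's adjusted p was 0.0306. It was also lost when the columns were centred on their medians, with a difference of 0.85 and a limma adjusted p of 0.0522. Over the whole table, leaving out 1 sample left 0 to 48 genes called higher, or 243 without HFD replicate 3, against 338 with all samples.

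Cox7b, a subunit with a broad tissue range, was at 15.35, 15.30, 15.34 and 15.15 in chow and 15.70, 15.63 and 15.71 in HFD. The groups did not overlap, as for every probe of the table. The difference of 0.40 (SE 0.0924, 1.31-fold, limma adjusted p = 0.0835) was not called. Across the 9 genes, the 8 other than Cox7a1 differed by 0.35 to 0.55.

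**Figure D2:**
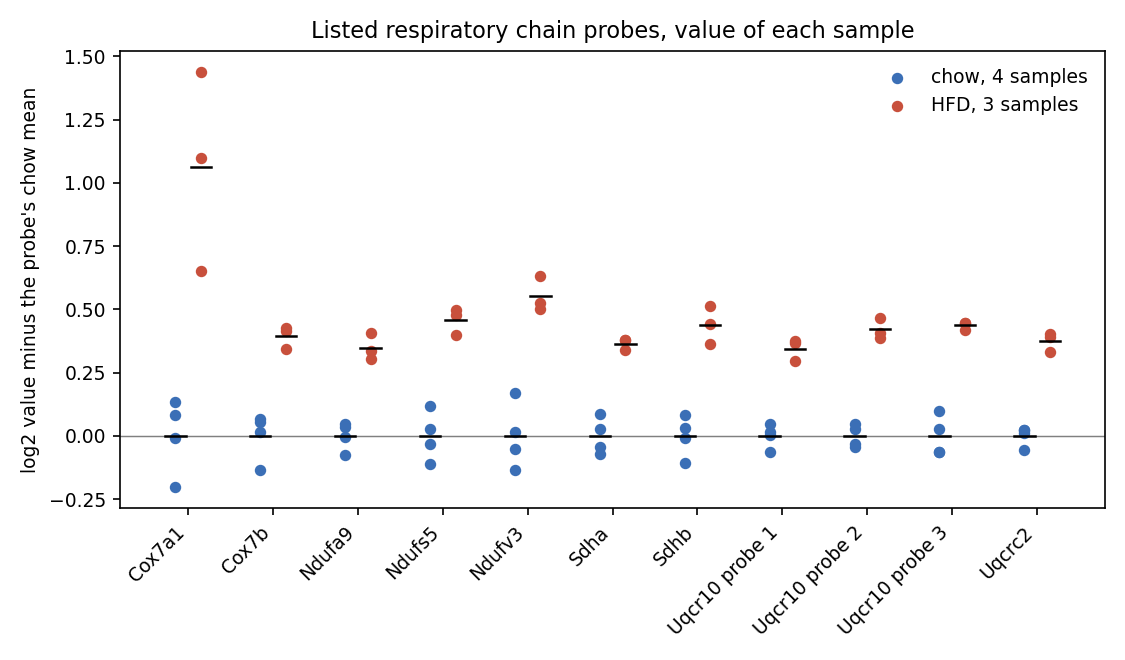
Log2 value of each sample minus the probe's chow mean (vertical axis) for the 11 listed probes of 9 genes (horizontal axis), with 4 chow and 3 HFD samples as points. The HFD points lie above the chow points for each probe, as for every probe listed as higher, and Cox7a1 has the widest HFD spread.

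Markers of other cell types were read beside Cox7a1. Of 8 skeletal muscle markers, Ckm, Myh1, Myh4, Mylpf and Tnnt3 were not well above background on any HFD array. Another 2 were well above background on all 3 HFD arrays, and 0 of the 8 were listed. Of 7 heart markers, Mb, Myl7, Tnni3 and Tnnt2 were likewise not above background there, while 2 were on all 3 arrays. Tnnt2 was listed as lower, with no size given because its HFD level is only a bound. Of 5 adipose markers, Adipoq and Ucp1 were not above background, 1 was on all 3 HFD arrays, and 0 were listed. The summed signal of the 5 ran from 807 to 6894 over the HFD arrays. All 5 stellate cell and fibroblast markers were well above background on every HFD array, with a summed signal between 58276 and 85142. Of these, Col3a1 was listed as higher by 1.61 and Dcn by 0.64. Col3a1, a fibrillar collagen, was at 9.76, 9.81, 10.10 and 10.12 in chow and 12.13, 11.76 and 10.77 in HFD, and Dcn at 15.38, 15.24, 15.42 and 15.49 and then 16.26, 16.05 and 15.77. Of 5 brain markers, Snap25 was listed as higher by 0.85, at 10.83, 10.81, 10.87 and 10.90 in chow and 11.82, 11.71 and 11.57 in HFD. In HFD these 3 genes had the same order of samples as Cox7a1. The listed hepatocyte markers Fga and Cps1 had the opposite order, at 13.68, 13.75 and 14.36 and at 12.67, 13.46 and 13.61. Serpina1a had neither order. How many genes of the table share an order was not counted. Of 6 macrophage and Kupffer cell markers 0 were listed, and their summed signal ran from 33462 to 81687 over the HFD arrays. The part of these markers in the Cox7a1 result was not tested. In bulk tissue, a change in the number of cells of a type and a change in RNA per cell cannot be told apart. Of 15 hepatocyte markers 0 were listed as higher and 3 as lower, namely Serpina1a by 0.52, Fga by 1.42 and Cps1 by 1.36, and their part in the results for the 9 genes was not tested.

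The 9 genes were unevenly placed in the range of values in the table. Of 340 genes with a mean above 13, 7 were members, and 57.6% of these 340 were listed as higher with a median difference of 0.65 among the higher ones. Between 8 and 13 the table held 633 genes with 2 members, and below 8 it held 515 genes with 0 members. The median of the HFD columns was 0.21 higher than that of the chow columns. With each column centred on its median, the differences of the 9 members were 0.14 to 0.85 with a median of 0.23. No gene of the table could change sign under this shift, which is smaller than the smallest listed difference of 0.33, and 801 genes were higher and 687 lower as before. The calls moved from 338 higher and 267 lower to 185 higher and 605 lower. With columns centred on their 75th percentile the members differed by 0.37 to 1.09, and the calls were 310 higher and 215 lower.

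**Figure D3:**
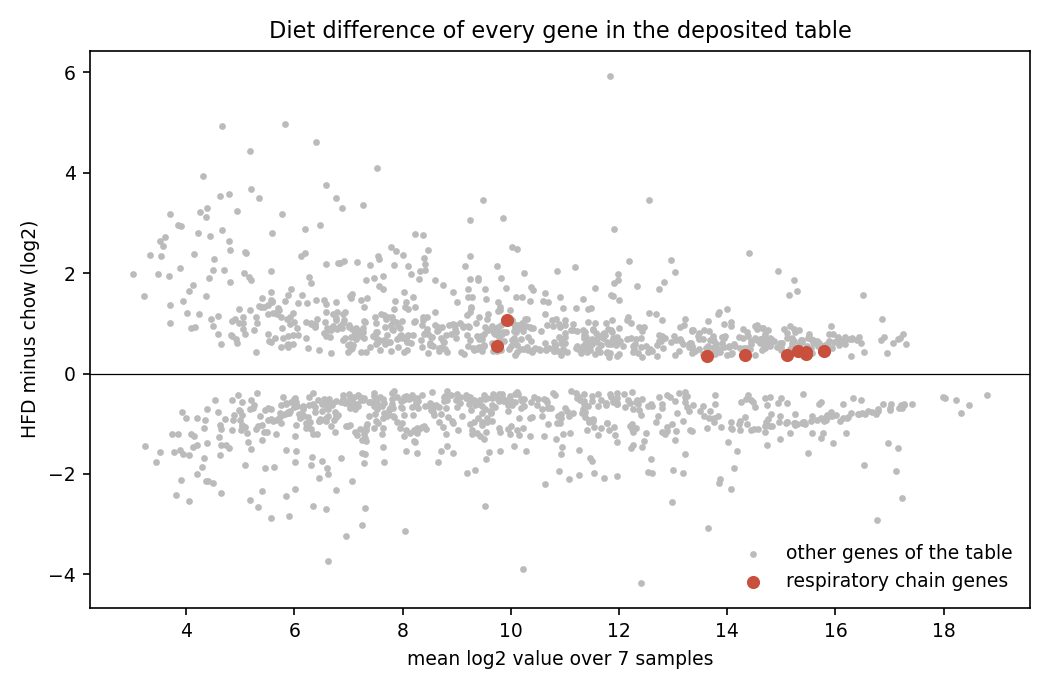
HFD minus chow difference in log2 (vertical axis) against the mean log2 value over 7 samples (horizontal axis) for the 1488 genes of the deposited table. The 9 respiratory chain genes all lie above 0, 7 of them at mean values over 13, and Cox7a1 has the largest difference among them.

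The 97 members detected in liver were then followed over the 3 HFD arrays, as the log2 processed signal minus the array's 75th percentile. Their median standard deviation was 0.113, against 0.188 over 19532 genes, which were not matched to the members by signal level. For 92 of the 97 the 3 arrays lay within 0.5, and for 1 the range exceeded 1. Of the 97, 88 were above the 75th percentile of every HFD array and 8 were below it on every one. Only Cox7b2 and Cox8c, isoforms best known from testis, were not well above background on any HFD array.

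Over the HFD arrays, the 7 core genes of complex I had a median standard deviation of 0.119, and Ndufs7 and Ndufs3 had the wider ranges among them, 0.31 and 0.29. Ndufs1, which carries iron-sulfur clusters of complex I, was at 4.58, 4.67 and 4.51 on the HFD arrays. Ndufv1, which binds NADH, was at 5.65, 5.80 and 5.81. Uqcrfs1, the Rieske iron-sulfur protein of complex III, was at 4.66, 4.77 and 4.83, and Cyc1, its cytochrome c1, at 5.44, 5.57 and 5.71. The ranges of these 4 genes were 0.27 or less, and none was listed by the table. Sdhb of complex II ranged over 0.35 (SD 0.191). Cycs, the mobile electron carrier cytochrome c, was at 4.95, 4.80 and 5.05 on its most intense probe, while the dimmest of its 3 probes was well above background on 2 of the 3 arrays. The medians of the standard deviation were 0.108 for accessory complex I genes, 0.0993 for complex II and 0.133 for complex III.

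Complex IV contained the pairs of isoforms in which one form is widespread and the other tissue-restricted. Cox4i1, the widespread form of subunit 4, was at 6.67, 6.74 and 6.65 on the HFD arrays, and Cox4i2, the form known from lung, at -2.23, -1.99 and -2.17. Cox6a2, the heart and muscle form of subunit 6a, was at -3.06, -3.68 and -4.14, and its range of 1.08 was the widest of all detected members on this scale. With normexp and quantile normalization the range of Cox6a2 was 0.48 and that of Cox7a1 0.79. The processed signals of Cox6a2 were only 116, 59.0 and 47.4, and those of Cox7a1 2200, 1394 and 1128. The normexp offset of 50 is near the signals of Cox6a2, and its part in these ranges was not tested. Cox8b, also known from muscle and brown fat, was at -4.13, -3.79 and -3.50. All of these were detected on each HFD array. HFD replicate 1 was the highest of the 3 for Cox6a2 and Cox7a1 and the lowest for Cox8b. Levels of different probes are not comparable with one another, so no order among isoforms is given. Ndufa4l2, the paralogue of the complex IV subunit Ndufa4 known to be induced by hypoxia, was at -0.93, -0.86 and -1.19, and neither it nor Ndufa4 was listed. Cox7a2, the widespread form of subunit 7a and the counterpart of Cox7a1, was at 5.12, 5.17 and 5.18 and was not listed.

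**Figure D4:**
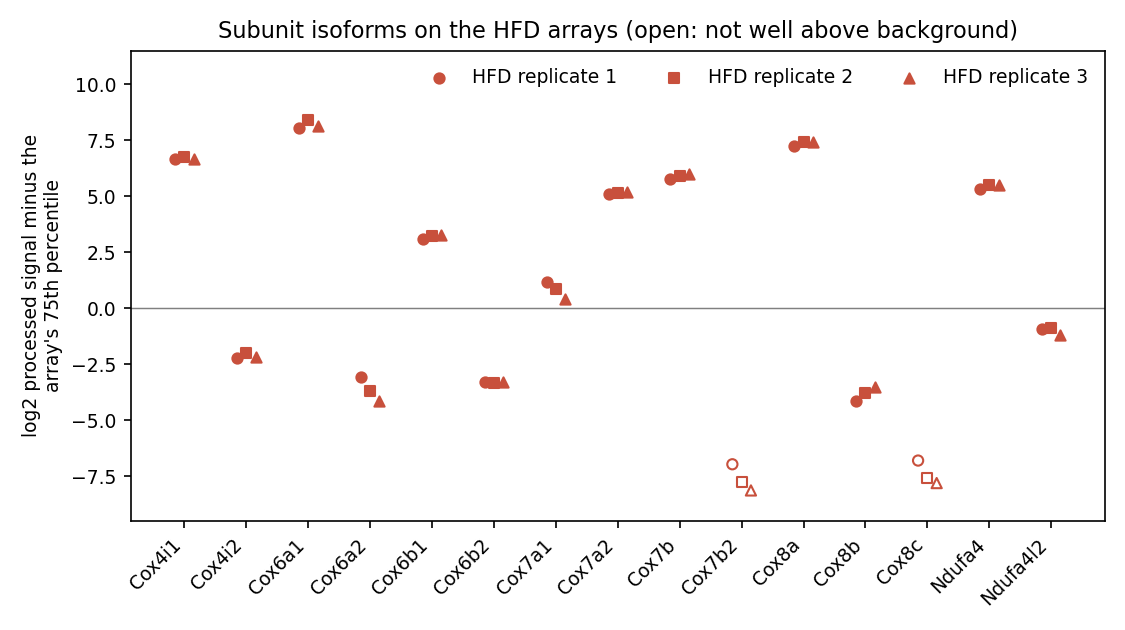
Log2 processed signal minus the array's 75th percentile (vertical axis) on each of 3 HFD arrays for isoforms of complex IV subunits (horizontal axis), with open symbols for genes not well above background. Heights may be compared between arrays for 1 gene and not between genes, and the 3 symbols of Cox6a2, Cox7a1 and Cox8b lie farthest apart among the filled ones.

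ATP synthase genes had a median standard deviation of 0.133 over the HFD arrays, and all 17 were well above background. Atp5a1, the alpha subunit of the catalytic head, was at 5.74, 6.14 and 6.10, and Atp5b, the catalytic beta subunit, at 7.16, 7.53 and 7.51. HFD replicate 1 was the lowest for both. Atp5g1, Atp5g2 and Atp5g3 encode the same mature c subunit of the membrane rotor, and their ranges over the HFD arrays lay between 0.20 and 0.31. The 12 assembly factors had a median standard deviation of 0.0973. Among them Ndufaf5, a complex I assembly factor, varied most, at -2.95, -2.38 and -2.31.

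On the scales of the 75th percentile and the array median, the low value of HFD replicate 1 recurred across the members. On the scale of the 75th percentile, the median deviation of the 97 genes from their own mean over the 3 arrays was -0.12 for HFD replicate 1, 0.06 for replicate 2 and 0.06 for replicate 3. Only 11 of the 97 were above their own mean on HFD replicate 1, against 81 and 77 on the others. For all genes the same medians were -0.035, 0.011 and 0.028. With normexp background correction and quantile normalization, the medians of the members were 0.00076, 0.0054 and -0.0010, and 49, 52 and 48 of 97 were above their own mean. That alternative changes the background correction and the normalization together. It also starts from median spot signals and keeps spots flagged as outliers, which the other scalings leave out. Which of these changes moved the medians was not tested. In the deposited table HFD replicate 1 was the lowest of the HFD samples for Ndufa9, Ndufv3 and Sdhb and not for the other listed members. On its array 57.0% of spots were well above background, against 62.3% and 66.8% for replicates 2 and 3. Its 75th percentile was 971, against 758 and 838.

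**Figure D5:**
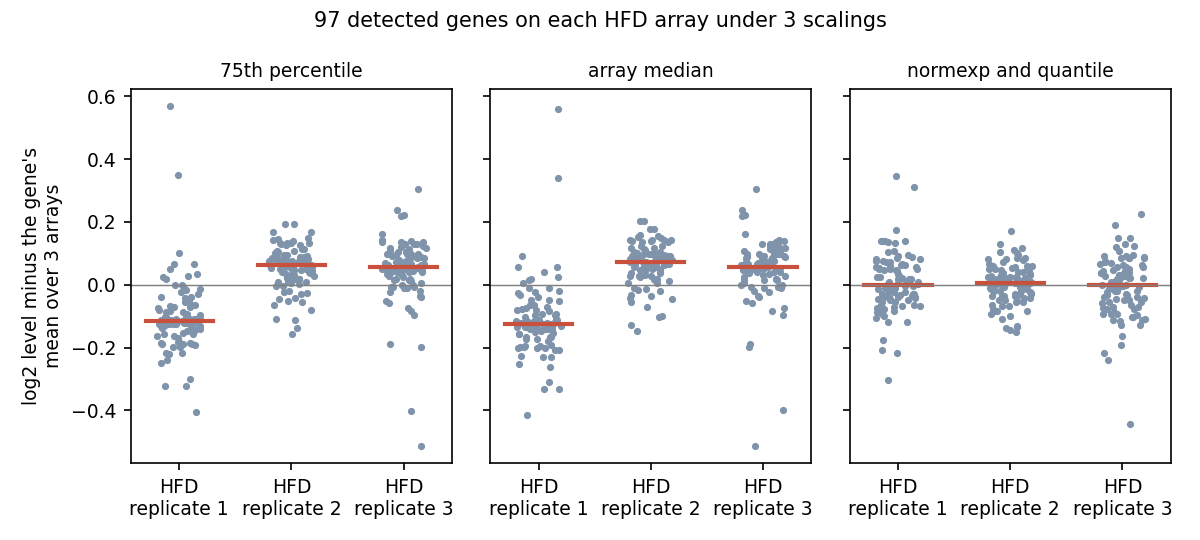
Log2 level minus the gene's own mean over 3 arrays (vertical axis) for 97 detected genes as points on each HFD array (horizontal axis), with the median as a line, under 3 scalings. The median of HFD replicate 1 is -0.12 with the 75th percentile, -0.13 with the array median and 0.00076 with normexp and quantile normalization.

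Genes that feed or build the chain were taken from lists of related genes. Beside each list stand the shares of all genes on the array, 2.47% listed as higher and 2.12% as lower. Among genes well above background on all 3 HFD arrays, a filter that favours genes higher in HFD, these shares were 4.45% and 3.46%. Limma called 1.04% of all genes higher, which is 42.2% of those listed as higher. No count of a list was tested against these shares. Of 18 tricarboxylic acid cycle and pyruvate dehydrogenase genes on the array, 3 were listed, all higher, and limma called all 3. Cs, citrate synthase, was at 14.03, 13.83, 14.12 and 13.71 in chow and 15.04, 14.56 and 14.80 in HFD, a difference of 0.88 (SE 0.155, 1.84-fold, limma adjusted p = 0.0479). Pdha1, the catalytic subunit of pyruvate dehydrogenase, differed by 0.78 (SE 0.128, 1.72-fold, limma adjusted p = 0.0400), and Dlat, its acetyltransferase, by 0.64 (SE 0.110, 1.56-fold, limma adjusted p = 0.0444). The groups did not overlap in any of the 3 genes, as for every probe of the table. These calls were at the edge of the threshold: leaving out any 1 sample ended each of them, with limma adjusted p between 0.0979 and 0.165 for Cs, 0.0722 and 0.139 for Pdha1, and 0.0770 and 0.165 for Dlat. Centring on the column medians also ended them, with limma adjusted p of 0.0969, 0.173 and 0.110. Centring on the 75th percentile ended that of Cs alone (limma adjusted p = 0.0524).

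Of the other lists limma called 0 genes on the deposited values, so the listed ones are given by their values. With columns centred on their medians limma called 4 of them lower, Gabpb1 (adjusted p = 0.0370), Twnk (adjusted p = 0.0467), Mrpl15 (adjusted p = 0.0242) and Mrps23 (adjusted p = 0.0363). Over the whole table that centring gave calls for 605 of the 687 genes listed as lower, so these 4 calls are not particular to these lists. Mrpl15 was also called with the prior taken from the table (limma adjusted p = 0.0389) and with the lowest probe of each gene (limma adjusted p = 0.0479), and Phb with that prior (limma adjusted p = 0.0499). Of 35 assembly factors outside the members 1 was listed, Uqcc2 of complex III, at 0.41 above chow (limma adjusted p = 0.0734). Of 77 genes grouped here under the mitochondrial ribosome 1 was listed as higher, Mrps36 by 0.42, and 2 as lower, Mrpl15 by 0.53 and Mrps23 by 0.44. Whether the product of Mrps36 is part of the ribosome was not examined, so the direction of this group is not read from it. Of 20 regulators of mitochondrial biogenesis 2 were listed, both lower. Gabpb1, the beta subunit of the factor GABP, was lower by 0.78 (limma adjusted p = 0.0705), and Twnk, the mitochondrial DNA helicase, by 0.59 (limma adjusted p = 0.0807).

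Of 21 genes for carriers, uncoupling and mitochondrial dynamics 2 were listed as higher. They were Slc25a4, an exchanger of ADP and ATP, by 0.50, and Phb, prohibitin of the inner membrane, by 0.49. Of 25 genes for antioxidant defence and electron entry 2 were listed, and both belong to the synthesis of coenzyme Q, the carrier that complexes I and II reduce. Coq8a was higher by 0.76 and Coq2 by 0.40. Of 16 chaperones and proteases 2 were listed, Htra2 higher by 0.93 and Spg7 higher by 0.50. Limma adjusted p for these 6 genes lay between 0.0635 and 0.0833.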

How the data were processed

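Liver RNA of 4 chow and 3 HFD samples was labelled with Cy3 from 0.5 microgram and hybridised to 1-colour Agilent arrays, per the labels' protocols. The deposited scanner files hold spot intensity values, processed and background-subtracted per the file headers, which name Feature Extraction 10.7.3.1, while version 9.1 is named in the submitters' processing notes. The authors deposited a table of log2 values for 1615 selected probes. Its normalization is not given in the sources used here, and no scanner file matched its chow columns, so their scale was not checked.

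Probes were named through RefSeq accessions (27234 of 39429). In the table a gene was represented by its listed probe of highest mean, and on the HFD arrays by its probe of highest mean there, which among the 9 listed members differ for Ndufv3 only. Table values were tested with limma 3.58.1 in R 4.3.3, after tests on simulated data. The variance prior came from the HFD scanner arrays (prior variance 0.0354 with 2.10 degrees of freedom), and p was adjusted over all 32451 genes with p of 1 for genes outside the table. Because the table was selected on the same contrast, these p-values are not those of an unselected experiment. HFD scanner levels are log2 of the processed signal minus the array's 75th percentile, and detection needed a probe flagged as well above background on 2 or more HFD arrays (97 members, as with all 3 required). The number of arrays limits the precision.

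The members, the gene lists, the rule for named genes (all members in the table, then the core and isoform genes of each complex and the listed genes of related lists) and the tests were chosen with earlier results of these data known. Alternatives were another prior, adjustment over the table alone, another probe rule, 2 centrings, a replicate block, leaving out each sample, and 2 other scalings of the HFD arrays. The normexp alternative (offset 50) used median in place of mean spot signals and kept spots flagged as outliers.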

Additional observations from a re-analysis of the deposited data

Results flagged for a closer look

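Among the 11 listed member probes, the chow values of Uqcrc2 held 1 sample apart from the others. Chow replicate 1 was at 14.88 and the other 3 at 14.95 to 14.96, a gap of 0.875 of the group's whole range which exceeds Dixon's critical value for 4 samples. Chance marks about 1 in 20 groups in this way. Without chow replicate 1 the HFD difference of Uqcrc2 was 0.36, against 0.38 with it.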

How the results depend on the processing

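No listed gene could reverse under the centrings, which shift all genes alike by less than the smallest listed difference. With median centring 4 of the 9 members and 1421 of the 1488 table genes kept an unadjusted limma p under 0.05. The number of members called by limma was 1, and it became 3 with the prior taken from the table and 9 with adjustment over the table alone, while it was 0 with median centring and 0 with the replicate block. Leaving out 1 sample at a time gave 0 to 1 called members, the 1 being without HFD replicate 3. The replicate block left 0 genes called in the whole table. The labels give no pairing of samples by replicate number, and the correlations of same-numbered deviations over the table were -0.101, 0.133 and 0.00645. These values come from selected probes and cannot settle whether the samples were paired. Over the table, the calls without 1 sample ran from 0 higher without chow replicate 1 or HFD replicate 1 to 243 higher without HFD replicate 3, against 338. With the prior from the table there were 552 higher and 474 lower, with median centring 185 and 605, and with adjustment over the table alone all 801 and 687. An exact permutation test of 1 gene over 35 sample splits could not fall below a two-sided p of 0.0571. The median level of the detected members over the HFD arrays was 5.21 above the 75th percentile, 8.75 above the array median, and 5.06 with normexp and quantile normalization, scales with different zero points. It lay between 5.14 and 5.28 with 1 HFD array left out. Signal over background limited Cox7b2 and Cox8c on every HFD array, and selection of the table leaves 90 members without a diet comparison.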

Other observations

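The scanner files labelled chow gave values of the members that belong to no comparison, since these files did not match the chow columns of the table and lacked signal above background for Alb and Apoa1. On the scale of the 75th percentile, Cox7a1 was at 1.94, 1.99, 1.60 and 1.81 in them and at 1.18, 0.88 and 0.43 in the HFD files, the opposite order to the table. Ndufv3 was lower in the HFD files by 0.37, also opposite to the table. The other 7 listed members were higher in the HFD files, by 0.64 to 1.14.

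Among the isoforms, Cox6b2 and Cox8b stood apart in the same files. Cox4i2, Cox6a2 and Ndufa4l2 were well above background in every file of both sets, and Cox7b2 and Cox8c in none. The share of all probes that differ as much was not counted. The processed signal of Cox6b2, a form of subunit 6b known from testis, was 2477, 2125, 2088 and 2616 in the files labelled chow and 100.2, 75.03 and 84.1 in the HFD files. Cox8b was well above background on 0 of the 4 files labelled chow and on 3 of 3 HFD files. What tissue or cells these 4 files measured is not given in the sources used here, and the cause of the mismatch was not tested.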
